A study of Mus musculus with 9 samples.

Results

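The Ifitm genes encode small interferon-induced transmembrane proteins. Their members here were Ifitm1, Ifitm2, Ifitm3, Ifitm5 and Ifitm6, found by gene symbol among the rows of an expression array, and 5 of 5 were measured among 19938 genes in all. Where several rows carried a symbol, the row was chosen by its mean log2 value over the 9 arrays, the highest being used. The family itself was taken up with earlier results of these data known, among them a lower Ifitm3 value in 1 of the 3 populations. The Ifitm3 differences below therefore describe that pattern and are not independent evidence for it.

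The RNA came from intraepithelial lymphocytes, the lymphocytes that lie between the epithelial cells of the gut, of the small intestine of untreated NOD SCID mice 8 to 10 weeks old. All arrays share this strain, which carries the scid mutation and lacks mature T and B cells, and no immunocompetent strain was set beside it. CD45 is found on leukocytes in general, so the sort does not by itself leave out dendritic cells or macrophages. CD3- CD45+ cells were sorted to a purity above 98% into Ly49E+CD8aa+, Ly49E+CD8aa- and Ly49E-CD8aa+ populations, with 3 arrays each that the labels call biological replicates. Ly49E belongs to the Ly49 receptors of natural killer cells, and CD8aa is a pair of CD8 alpha chains. The labels do not say how many mice gave the RNA of an array, so p-values measure the spread between preparations. For each gene this spread was pooled over all 9 arrays and moderated across genes. The reported standard error (SE), interval and p-value of a comparison therefore also draw on the arrays of the population left out of it.

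Mouse Ifitm3 sits in endosomal membranes, where it hinders the fusion of enveloped viruses such as influenza virus with the cell. Ifitm1 and Ifitm2 are close relatives that act at the plasma membrane and in endosomes, and all 3 can be raised by interferons, whose signal reaches promoters through STAT and IRF factors. Ifitm5 is a gene of bone-forming cells that is not known as an interferon target, and Ifitm6 is known from myeloid cells of the mouse. Ifitm3 is also known to be held at a raised level in some tissue-resident memory T cells.

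The promoters are shown because Ifitm3 differed between populations while the rows used for Ifitm1 and Ifitm5 did so by little. A dimmer Ifitm1 row, described below, differed by -0.63 for Ly49E+CD8aa+ minus Ly49E+CD8aa- and was not called. A second reason is that Ifitm2, which lies beside Ifitm1 in the same gene cluster, shares a motif with Ifitm3. Whether the motif bears on the differences was not tested. RefSeq gave 1 window for each of the 5 members on chromosome 7 of GRCm38.p6, read from 250 bases before to 30 bases after the start of transcription. Capitals mark matches to the core of the interferon-stimulated response element, written GAAANNGAAA and searched on both strands.
Ifitm3, minus strand, chr7:141010715-141010994: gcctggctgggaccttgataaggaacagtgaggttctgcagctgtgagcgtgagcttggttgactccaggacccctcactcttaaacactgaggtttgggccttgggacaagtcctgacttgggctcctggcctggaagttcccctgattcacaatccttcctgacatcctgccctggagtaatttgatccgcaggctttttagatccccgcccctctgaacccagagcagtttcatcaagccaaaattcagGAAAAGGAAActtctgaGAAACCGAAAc
Ifitm2, minus strand, chr7:140955932-140956211: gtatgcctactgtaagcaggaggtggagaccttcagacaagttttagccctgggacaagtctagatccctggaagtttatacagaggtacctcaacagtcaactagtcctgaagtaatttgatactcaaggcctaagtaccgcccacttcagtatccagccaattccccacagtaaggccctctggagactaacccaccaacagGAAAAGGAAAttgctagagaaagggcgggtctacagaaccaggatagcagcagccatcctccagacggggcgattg
Ifitm1, plus strand, chr7:140967826-140968105: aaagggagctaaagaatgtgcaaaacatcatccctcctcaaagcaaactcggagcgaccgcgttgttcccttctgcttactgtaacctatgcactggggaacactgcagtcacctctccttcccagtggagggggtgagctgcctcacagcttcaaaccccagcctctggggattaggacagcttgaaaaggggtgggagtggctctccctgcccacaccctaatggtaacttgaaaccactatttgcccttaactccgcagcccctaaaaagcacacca

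The Ifitm3 window held 2 matches, GAAAAGGAAA at bases 3 to 12 and GAAACCGAAA at bases 20 to 29 after the start. The Ifitm2 window held 1, GAAAAGGAAA, at bases -46 to -37, and the windows of Ifitm1, Ifitm5 and Ifitm6 held 0. The Ifitm2 and Ifitm3 windows shared an unbroken run of 13 bases around that match, CAGGAAAAGGAAA, and the other pairs of members shared at most 10. Over all 32851 RefSeq windows of this length, 3.28% held the motif. A second motif, the gamma-activated site written TTCNNNGAA, was found once in Ifitm3, at bases 14 to 22 and so overlapping the second match there, and once in Ifitm6, at bases -10 to -2. It was present in 7.83% of all windows. These matches are letters in a window and do not show that a factor binds there.

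Ifitm3 was low in the population that carried both markers and high in each population that carried 1. Its log2 expression value was 5.26, 5.32 and 4.88 in Ly49E+CD8aa+ cells. It was 6.79, 7.27 and 7.18 in Ly49E+CD8aa- cells and 7.65, 6.45 and 7.11 in Ly49E-CD8aa+ cells. The 3 Ly49E+CD8aa+ arrays lay below all 6 others, and the other populations overlapped each other. The values in Ly49E+CD8aa+ also lay under the array medians over all rows (5.76 to 5.82), and no detection calls were used, so the transcript may still be present there. The mean was 5.15 ± 0.238 for Ly49E+CD8aa+ cells, 7.08 ± 0.257 for Ly49E+CD8aa- cells and 7.07 ± 0.602 for Ly49E-CD8aa+ cells (SD, n = 3 each).

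**Figure D1:**
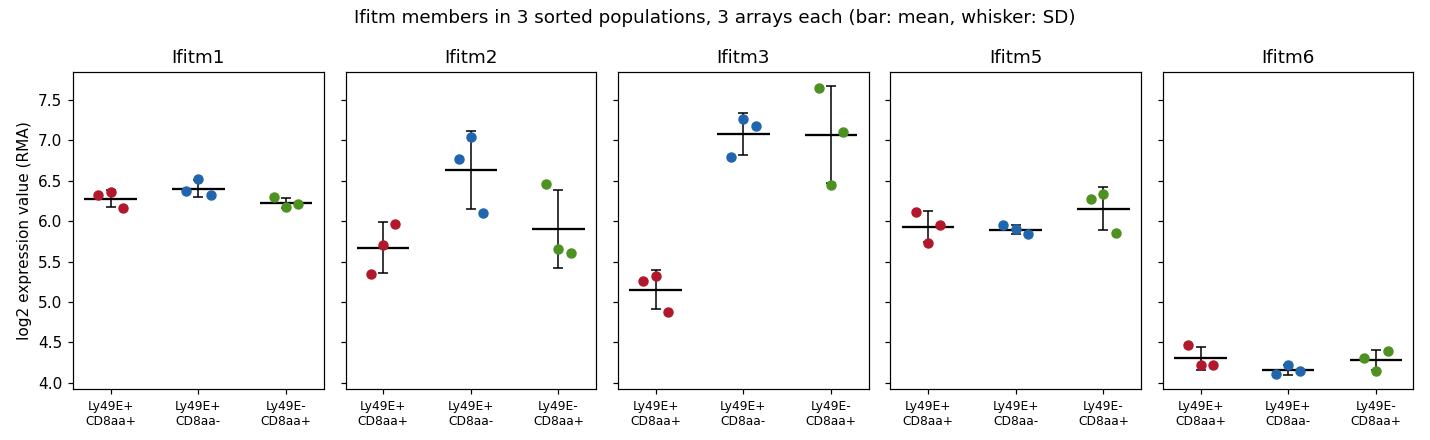
Log2 expression values of the 5 members on each of the 9 arrays, by sorted population, with the mean as a bar and the SD as a whisker. Ifitm3 is the member whose 3 Ly49E+CD8aa+ arrays (4.88 to 5.32) sit below all arrays of the other populations (6.45 to 7.65).

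Among Ly49E+ cells, the comparison that asks what goes with CD8aa, Ifitm3 was lower in the Ly49E+CD8aa+ population, with a log2 difference from Ly49E+CD8aa- of -1.92 (SE 0.272, 95% interval -2.54 to -1.31), a 3.79-fold difference. It was called lower (limma, Benjamini-Hochberg adjusted p = 0.00675 over 19938 genes), a call being an adjusted p under 0.05. Of the 5 members 1 was called lower, against 1.22% of all genes, and 0 were called higher, against 0.476% of all genes. The median difference over the members was -0.12, against 0.0253 over all genes. In 2 of 5 members, Ifitm3 and Ifitm2, the arrays of the populations did not overlap, against 12.9% of all genes. The Ifitm3 call was kept in all 22 alternatives run, with adjusted p from 0.00194 to 0.0386.

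Among CD8aa+ cells, the comparison that asks what goes with Ly49E, the Ifitm3 difference between Ly49E+CD8aa+ and Ly49E-CD8aa+ was also -1.92 (SE 0.272, 95% interval -2.53 to -1.30), a 3.78-fold difference. It was called by a narrow margin (limma adjusted p = 0.0438). The count was 1 of 5 members lower, against 0.11% of all genes, and 0 higher, against 0.0201% of all genes, with a median over the members of -0.23 against -0.000488 over all genes. The arrays did not overlap in 1 of 5 members, against 6.25% of all genes. This comparison shares the Ly49E+CD8aa+ arrays with the preceding one. The call was lost without any 1 of 8 arrays (adjusted p from 0.0873 to 0.216), the exception being Ly49E-CD8aa+ replicate 2, without which the difference was -2.23 (adjusted p = 0.0111). It was lost too with the 6 arrays of the comparison alone (limma adjusted p = 0.339), while the difference stayed at -1.92. Of all 19938 genes, limma called 26 as reported, 5 to 10 without 1 of those 8 arrays and 0 with the 6 arrays alone. Counting every setting, the Ifitm3 call was lost in 12 of 22 alternatives, which are listed in the closing section.

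Between the populations with a single marker, Ifitm3 was at nearly the same level. The difference of Ly49E+CD8aa- minus Ly49E-CD8aa+ was 0.01 (SE 0.272, limma adjusted p = 0.997), and its 95% interval of -0.61 to 0.62 leaves room for a difference in either direction. None of the 5 members was called by limma in this comparison (0 higher against 1.35% of all genes, 0 lower against 0.802%), with 1 at an unadjusted p under 0.05, Ifitm2. The arrays of Ifitm1 did not overlap, which makes 1 of 5 members against 12.7% of all genes. The plot of differences with their intervals shows the 5 members side by side.

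**Figure D2:**
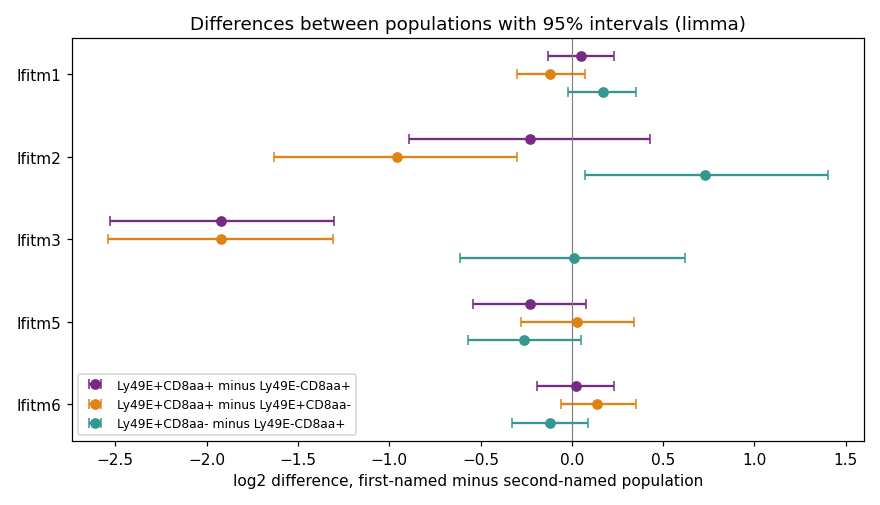
Log2 differences of the 5 members in the 3 comparisons, first-named minus second-named population, with 95% intervals from limma as horizontal bars. The Ifitm3 intervals of both comparisons with Ly49E+CD8aa+ lie wholly below 0 (-2.53 to -1.30 and -2.54 to -1.31), and that between the populations with a single marker spans 0.

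Ifitm2 had its highest values in Ly49E+CD8aa- cells, without passing the test. It was 5.34, 5.71 and 5.97 in Ly49E+CD8aa+ cells, 6.77, 7.04 and 6.10 in Ly49E+CD8aa- cells, and 6.46, 5.66 and 5.60 in Ly49E-CD8aa+ cells. The Ly49E+CD8aa+ arrays all lay below those of Ly49E+CD8aa-, and the Ly49E-CD8aa+ arrays overlapped both. The difference of Ly49E+CD8aa+ minus Ly49E+CD8aa- was -0.96 (SE 0.293, 95% interval -1.63 to -0.30, limma adjusted p = 0.238). That of Ly49E+CD8aa- minus Ly49E-CD8aa+ was 0.73 (SE 0.293, limma adjusted p = 0.416). That of Ly49E+CD8aa+ minus Ly49E-CD8aa+ was -0.23 (SE 0.293, adjusted p = 1). Single arrays weighed on these values: replicate 3 of Ly49E+CD8aa- read lower than its other arrays and replicate 1 of Ly49E-CD8aa+ higher. Without Ly49E-CD8aa+ replicate 1 the last difference was 0.05 in place of -0.23, and without Ly49E+CD8aa- replicate 3 the first was -1.23 (adjusted p = 0.113).

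Ifitm2 was carried by 3 rows of the array, which followed one another with Pearson correlations of 0.92 to 0.98 over the 9 arrays. In the second row the values were 5.20, 5.46 and 5.64 in Ly49E+CD8aa+ cells, 6.36, 6.69 and 5.85 in Ly49E+CD8aa- cells, and 6.42, 5.38 and 5.49 in Ly49E-CD8aa+. In the third they were 5.31, 5.78 and 5.61, then 6.18, 6.76 and 5.89, then 6.12, 5.09 and 5.29, in the same order of populations. Each row placed all Ly49E+CD8aa+ arrays below those of Ly49E+CD8aa-, with differences of -0.96, -0.87 and -0.71. The array's annotation gives the same transcript accessions for all 3 rows, so the rows are not independent measurements. Probes of such close relatives are open to cross-hybridisation, and no row separates Ifitm2 from the rest of the family with certainty. The same limit holds for Ifitm3, which was carried by 1 row and had no other row to set beside it.

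The 2 rows of Ifitm1 differed in the size of their changes more than in their order, with a Pearson correlation of 0.83 over the 9 arrays. In the brighter one, used here, Ifitm1 was nearly level at 6.32, 6.36 and 6.16 in Ly49E+CD8aa+ cells, 6.37, 6.52 and 6.32 in Ly49E+CD8aa- cells, and 6.30, 6.18 and 6.21 in Ly49E-CD8aa+. Its 3 differences were 0.05, -0.12 and 0.17, for Ly49E+CD8aa+ minus Ly49E-CD8aa+, Ly49E+CD8aa+ minus Ly49E+CD8aa- and Ly49E+CD8aa- minus Ly49E-CD8aa+ (SE 0.0812, adjusted p = 1, 0.739 and 0.532). The dimmer row followed Ifitm2 in its order of populations, with 4.96, 5.14 and 4.99 in Ly49E+CD8aa+ cells, 5.70, 6.06 and 5.23 in Ly49E+CD8aa- cells, and 5.31, 4.97 and 5.15 in Ly49E-CD8aa+. Its difference of Ly49E+CD8aa+ minus Ly49E+CD8aa- was -0.63, with arrays that did not overlap, and when this row stood for the gene it was not called (limma adjusted p = 0.214). Both rows had their highest mean in Ly49E+CD8aa- cells, at 6.40 in the brighter and 5.66 in the dimmer. Their direction differed in 1 of 3 comparisons, Ly49E+CD8aa+ minus Ly49E-CD8aa+, at 0.05 in the brighter and -0.11 in the dimmer.

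**Figure D3:**
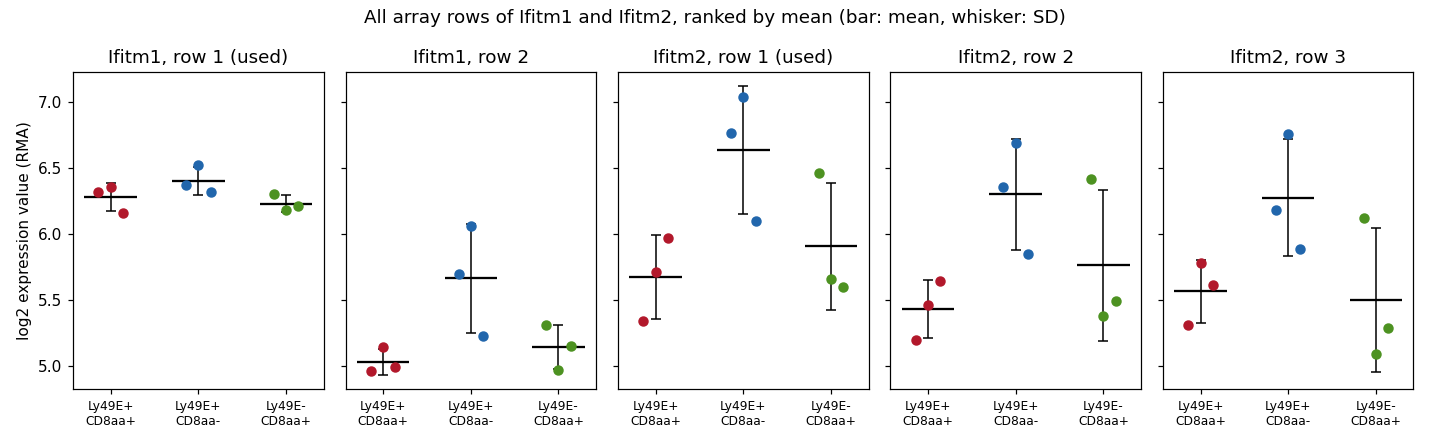
Log2 expression values of both rows of Ifitm1 and all 3 rows of Ifitm2 on each array, by sorted population, with the mean as a bar and the SD as a whisker. The Ifitm2 rows and the dimmer Ifitm1 row share high values on Ly49E+CD8aa- replicates 1 and 2 (5.70 to 7.04), while the brighter Ifitm1 row stays between 6.16 and 6.52.

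Ifitm5 and Ifitm6 were not called in any of the 3 comparisons. Ifitm5 read 6.11, 5.73 and 5.95 in Ly49E+CD8aa+ cells, 5.95, 5.90 and 5.84 in Ly49E+CD8aa- cells, and 6.28, 6.34 and 5.85 in Ly49E-CD8aa+. Its differences in the order given for Ifitm1 were -0.23, 0.03 and -0.26 (SE 0.138, limma adjusted p = 1, 0.97 and 0.584), and the arrays of all populations overlapped. Without Ly49E-CD8aa+ replicate 3, its lowest array there, the first and last of these were -0.38 and -0.41 (limma adjusted p = 0.818 and 0.168), and without Ly49E+CD8aa+ replicate 2 the first was -0.13. Ifitm6 was at the dim end of the array, with values from 4.11 to 4.47 beside array medians of 5.76 to 5.82. Its differences were 0.02, 0.14 and -0.12 (SE 0.0926, limma adjusted p = 1, 0.716 and 0.732), and it was the only member below the 25th percentile of row means. The 95% intervals of Ifitm6 reached no further than -0.33 and 0.35 in these 3 comparisons.

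Among 8 genes beside the cluster, 0 were called lower in Ly49E+CD8aa+ against Ly49E-CD8aa+ (all genes 0.11%) or Ly49E+CD8aa- (all genes 1.22%). At such shares, 0 of 8 does not set these neighbours apart from other genes. In the opposite direction limma called 1 of 8, B4galnt4, higher against Ly49E+CD8aa- (all genes 0.476%). In the RefSeq gene order the 5 members stand together, Ifitm5, Ifitm2, Ifitm1, Ifitm3 and Ifitm6, and 4 measured genes were taken on each side. Before the cluster these were Psmd13, Cox8b, Nlrp6 and Pgghg, and after it B4galnt4, Pkp3, Sigirr and Ano9. Their differences of Ly49E+CD8aa+ minus Ly49E-CD8aa+ ran from -0.14 to 0.11, with 0 called. B4galnt4, a glycosyltransferase gene, differed by 0.63 for Ly49E+CD8aa+ minus Ly49E+CD8aa- (SE 0.109, limma adjusted p = 0.0211) and by -0.69 for Ly49E+CD8aa- minus Ly49E-CD8aa+ (SE 0.109, limma adjusted p = 0.0113). It averaged 8.16 ± 0.157 in Ly49E+CD8aa+ cells, 7.53 ± 0.157 in Ly49E+CD8aa- cells, and 8.22 ± 0.112 in Ly49E-CD8aa+ (SD, n = 3).

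Other interferon targets showed no shift of the size of Ifitm3. Of 35 listed type I interferon-stimulated genes 32 were measured, and in Ly49E+CD8aa+ against Ly49E-CD8aa+ limma called 0, with a median difference of -0.02 and a range from -0.67 for Bst2, which encodes the virus-tethering protein tetherin, to 0.34 for Isg20, an exonuclease gene. In Ly49E+CD8aa+ against Ly49E+CD8aa- it again called 0 of 32, with a median of -0.07 and a range from -0.48 for Oasl2 to 0.30 for Dhx58. In Ly49E+CD8aa- against Ly49E-CD8aa+ the 1 called gene was Eif2ak2, the RNA-sensing kinase PKR, at -0.46 (SE 0.091, limma adjusted p = 0.0338). Ifit3, a cytoplasmic antiviral gene, had the highest difference there at 0.76 (SE 0.171) and missed the threshold (limma adjusted p = 0.0648). Of the 22 measured genes of this list with a RefSeq window, 8 held the response element core in it, and 0 of these 8 was called in a comparison with Ly49E+CD8aa+. Over all genes, limma called 0.11% lower and 0.0201% higher in Ly49E+CD8aa+ against Ly49E-CD8aa+, and 1.22% and 0.476% against Ly49E+CD8aa-. In Ly49E+CD8aa- against Ly49E-CD8aa+ it called 0.802% of all genes lower and 1.35% higher. At such shares, 0 calls among 32 or 8 genes do not set this list apart from other genes. The shares apply to the list counts below as well.

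Genes induced by interferon gamma and the genes of interferon signalling were described by the same counts. Of 16 measured interferon gamma-induced genes, 0 were called in Ly49E+CD8aa+ against Ly49E-CD8aa+ (median -0.03). Iigp1, an immunity-related GTPase gene, was lower in Ly49E+CD8aa+ against Ly49E+CD8aa- by a difference of -0.51 (SE 0.0932, limma adjusted p = 0.0273). It was the 1 call of 16 (list median -0.16), at 3.56 ± 0.0991 in Ly49E+CD8aa+ cells and 4.07 ± 0.168 in Ly49E+CD8aa- (SD, n = 3 each). Its values on all arrays, 3.45 to 4.19, lay below the lower quartiles of the arrays (4.4 to 4.47), at the dim end. Among 20 measured receptor and signalling genes, 0 were called in Ly49E+CD8aa+ against Ly49E-CD8aa+ and 2 were lower against Ly49E+CD8aa-. These were Irf5, a transcription factor gene of innate cells, at -0.71 (SE 0.0911, limma adjusted p = 0.00387), and Ifngr1, which encodes the ligand-binding chain of the interferon gamma receptor, at -0.60 (SE 0.12, limma adjusted p = 0.044). Both were also higher in Ly49E+CD8aa- against Ly49E-CD8aa+, by 0.52 and 0.81 (limma adjusted p = 0.0198 and 0.00822). Unlike Ifitm3, neither was called between Ly49E+CD8aa+ and Ly49E-CD8aa+, with differences of -0.19 and 0.21.

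Of the interferon genes, 7 of 9 listed were measured and 0 were called by limma in any comparison, with 1 of them, Ifng, at an unadjusted p under 0.05. Ifng, the interferon gamma gene, read 6.28, 6.10 and 6.36 in Ly49E+CD8aa+ cells, 7.40, 7.08 and 6.58 in Ly49E+CD8aa- cells, and 5.49, 6.14 and 6.69 in Ly49E-CD8aa+. It was therefore higher on every Ly49E+CD8aa- array than on any Ly49E+CD8aa+ array, while the Ly49E-CD8aa+ arrays ranged around the Ly49E+CD8aa+ values. The differences were -0.78 for Ly49E+CD8aa+ minus Ly49E+CD8aa- (SE 0.289, limma adjusted p = 0.397) and 0.14 for Ly49E+CD8aa+ minus Ly49E-CD8aa+ (adjusted p = 1). The largest Ifng difference was 0.92, for Ly49E+CD8aa- minus Ly49E-CD8aa+, and was not called either. Whether interferon had acted on the cells was not tested.

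Ifitm proteins work with tetraspanins and are modified by palmitoyl transferases and ubiquitin ligases. Of 17 measured cofactors and modifiers, 0 were called in Ly49E+CD8aa+ against Ly49E-CD8aa+, and 2 were lower against Ly49E+CD8aa-. Zdhhc2, a palmitoyl transferase gene, read 4.55, 4.68 and 5.07 in Ly49E+CD8aa+ cells, 6.55, 6.68 and 6.50 in Ly49E+CD8aa- cells, and 4.67, 5.07 and 4.92 in Ly49E-CD8aa+. It was thus high in Ly49E+CD8aa- alone, with differences of -1.81 for Ly49E+CD8aa+ minus Ly49E+CD8aa- (SE 0.144, limma adjusted p = 0.000172) and 1.69 for Ly49E+CD8aa- minus Ly49E-CD8aa+ (SE 0.144, limma adjusted p = 0.000259). The tetraspanin gene Cd9 had the same order, with differences of -1.26 and 1.02 (SE 0.19, limma adjusted p = 0.00969 and 0.0259). Zdhhc20, whose human enzyme palmitoylates IFITM3, was not called and differed by -0.07 to 0.09. Of 10 listed relatives that share the CD225 domain, 7 were measured and 0 were called in any comparison; Ifitm7 and Ifitm10 differed by -0.16 to -0.01.

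**Figure D4:**
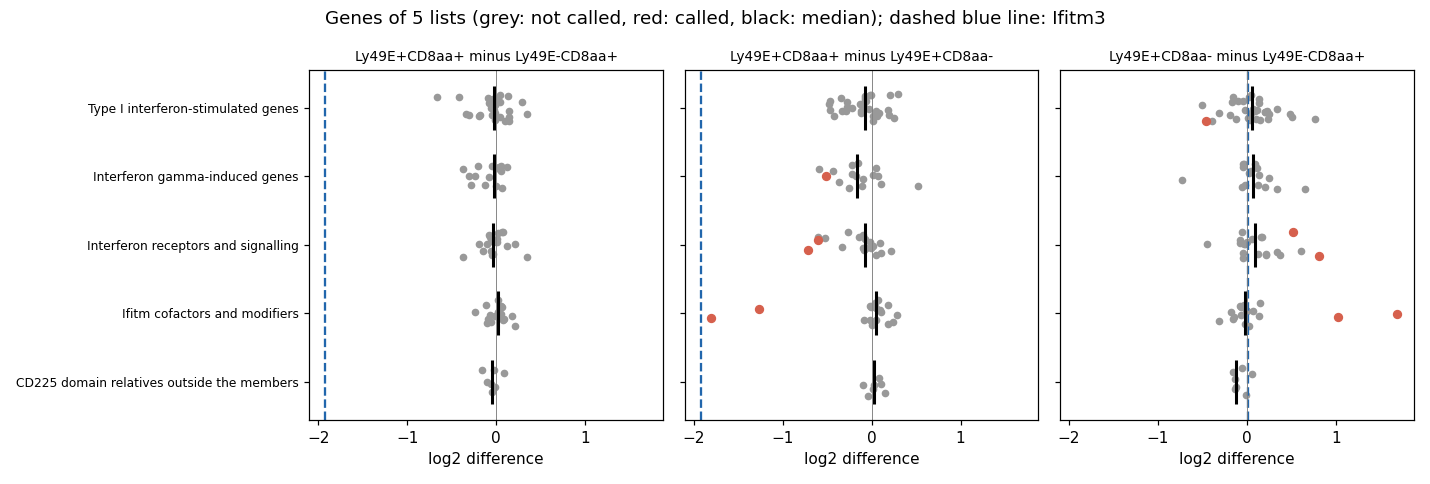
Log2 differences of single genes in 5 lists (rows) and the 3 comparisons (panels), in grey where not called and in red where called by limma, with the list median as a black bar and Ifitm3 as a dashed blue line. In both comparisons with Ly49E+CD8aa+ the Ifitm3 line, at -1.92, lies to the left of every listed gene.

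The genes whose values over the 9 arrays were most like those of Ifitm3 were sought among 239 other genes whose population means spanned at least 1 log2 unit. They were Ctsh, the gene of the lysosomal protease cathepsin H (Pearson r = 0.961), H2-Aa, an MHC class II chain gene (0.931), Lair1, a collagen-binding inhibitory receptor gene (0.881), Lgals1, the galectin 1 gene (0.842), and Ccr2, a chemokine receptor gene (0.825). These correlations run over 9 arrays of 3 populations and are a description of shared order. Ctsh read 4.75, 5.19 and 4.88 in Ly49E+CD8aa+ cells, 6.70, 6.48 and 6.84 in Ly49E+CD8aa- cells, and 7.27, 6.42 and 6.43 in Ly49E-CD8aa+. As with Ifitm3, its populations with a single marker overlapped each other and lay above Ly49E+CD8aa+. Lgals1 and Ccr2 differed from that pattern in that limma called them higher in Ly49E+CD8aa- against Ly49E-CD8aa+, by 1.71 and 1.02 (limma adjusted p = 0.017 and 0.022), where Ifitm3 was at 0.01. Lair1 was not called in any comparison, and its Ly49E+CD8aa- arrays lay below those of Ly49E-CD8aa+ (difference -0.57, limma adjusted p = 0.382). H2-Aa and Ccr2 were not called in Ly49E+CD8aa+ against Ly49E-CD8aa+ (limma adjusted p = 0.124 and 0.0893).

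Markers of the listed cell types, innate lymphocytes among them, differed along with Ifitm3 in both comparisons of Ly49E+CD8aa+, but mostly through different genes. Against Ly49E-CD8aa+, limma called 4 of 14 dendritic cell markers lower (Siglech, Ly6d, Cox6a2 and Spib), 2 of 16 macrophage and monocyte markers (Cybb and Mpeg1) and 1 of 14 markers of natural killer cells and innate lymphocytes (Il7r). Siglech, a lectin gene of plasmacytoid dendritic cells, read 5.46, 5.58 and 5.57 in Ly49E+CD8aa+ cells, 5.69, 5.68 and 5.57 in Ly49E+CD8aa- cells, and 7.84, 7.26 and 7.43 in Ly49E-CD8aa+. Cybb, the phagocyte oxidase gene, averaged 3.93, 4.02 and 6.41 in the same order. Both were thus near the Ly49E+CD8aa+ level in Ly49E+CD8aa- cells, where Ifitm3 averaged 7.08.

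Against Ly49E+CD8aa-, the markers called lower were Ccr9 of the dendritic cell list, Ccr2 of the macrophage and monocyte list, Kit of the mast cell list (1 of 7) and 7 of 14 markers of natural killer cells and innate lymphocytes, with 2 of these 14 called higher. The largest of those differences was that of Klrk1, the gene of the activating receptor NKG2D, at -5.46 (limma adjusted p = 3.94e-07). Innate lymphocytes also express Ccr9, Ccr2 and Kit. Summed on the linear scale and returned to log2, the dendritic cell markers were lowest in Ly49E+CD8aa+ at 10.99 to 11.10, with 11.53 to 11.69 in Ly49E+CD8aa- cells, and 11.29 to 11.71 in Ly49E-CD8aa+. Such a sum is carried by its brightest rows. By mean these were Itgax and Ccr9 in Ly49E+CD8aa- cells, and Itgax and Bst2 in the other populations. Bst2 averaged 8.52 in Ly49E+CD8aa+ and 9.19 in Ly49E-CD8aa+ cells. Ccr9 averaged 8.27 in Ly49E+CD8aa+, 9.86 in Ly49E+CD8aa- and 7.86 in Ly49E-CD8aa+ cells. In Ly49E+CD8aa- against Ly49E-CD8aa+, where Ifitm3 differed by 0.01, limma called 6 of 14 dendritic cell markers lower and 2 higher (all genes 0.802% and 1.35%). Their median was -0.46, with Siglech at -1.87 (limma adjusted p = 7.28e-05). The sums of macrophage and monocyte markers were 10.26 to 10.47, 10.32 to 10.37 and 10.55 to 10.80 in that order. The 16 macrophage and monocyte markers had a median difference of -0.06 in Ly49E+CD8aa+ against Ly49E-CD8aa+, with a range from -2.48 for Cybb to 0.35 for Mertk. Array values have no true zero, so no marker can be called absent. The part of such cells in the Ifitm3 values was not tested.

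Within Ly49E-CD8aa+, replicate 1 had the highest Ifitm3 value (7.65) and also the highest sums of dendritic cell (11.71), macrophage (10.80) and enterocyte markers (13.43). Enterocyte markers were highest on replicate 1 of every population, at 13.40 in Ly49E+CD8aa+ cells, 13.34 in Ly49E+CD8aa- cells, and 13.43 in Ly49E-CD8aa+, against 12.56 to 12.95 on the other 6 arrays, and 0 of 11 were called in any comparison. On replicate 1 of the other populations Ifitm3 read 6.79 in Ly49E+CD8aa- cells, its lowest value there, and 5.26 in Ly49E+CD8aa+ cells. The part of enterocyte RNA in the Ifitm3 values was not tested. Without Ly49E-CD8aa+ replicate 1 the Ifitm3 difference of Ly49E+CD8aa+ minus Ly49E-CD8aa+ was -1.63 (limma adjusted p = 0.0982). Of 12 granulocyte, 6 B and plasma cell and 9 stromal and endothelial markers, limma called 0 in any comparison. In sorted bulk RNA, fewer cells that express a gene and less of its RNA per cell cannot be told apart.

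The sorted populations carried the transcripts of their labels in part. Klra5, which encodes Ly49E, averaged 11.40 in Ly49E+CD8aa+ cells, 11.43 in Ly49E+CD8aa- cells, and 6.59 in Ly49E-CD8aa+. Cd8a averaged 12.55, 11.42 and 12.58 in that order, so that Cd8a RNA was lower but present in the CD8aa- cells. Ptprc, the CD45 gene, was within 0.03 in all 3 comparisons.

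**Figure D5:**
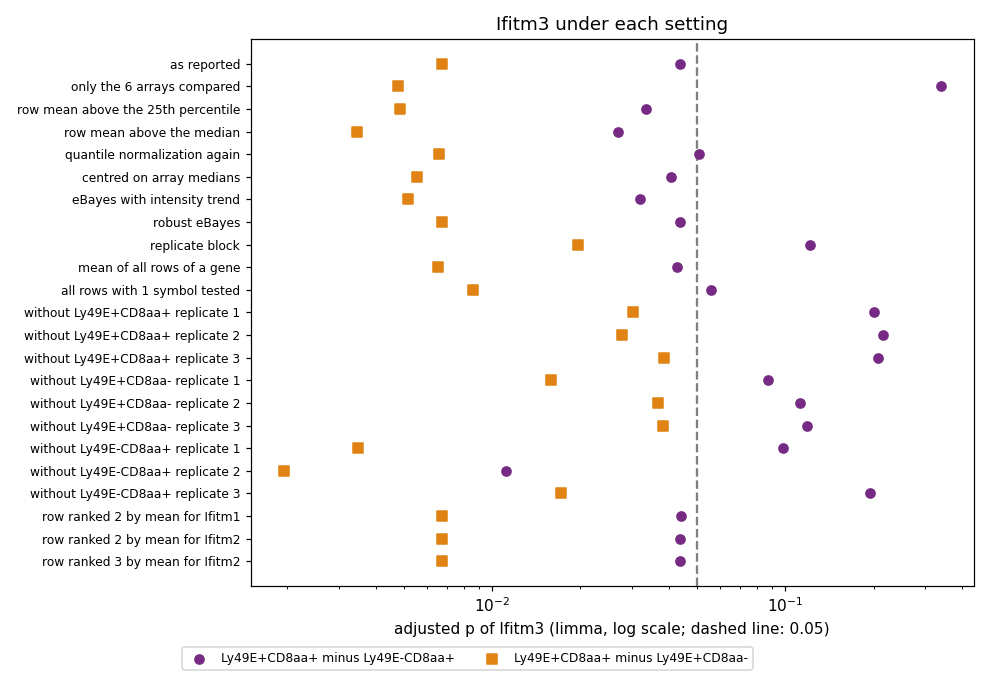
Adjusted p of Ifitm3 (log axis) as reported and under each alternative (rows), for Ly49E+CD8aa+ minus Ly49E-CD8aa+ as circles and Ly49E+CD8aa+ minus Ly49E+CD8aa- as squares, with the threshold of 0.05 as a dashed line. All squares lie left of the line (0.00194 to 0.0386), and 12 of the 22 alternative circles lie right of it.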

How the data were processed

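The authors deposited log2 expression values from 9 Affymetrix Mouse Gene 1.0 ST arrays, made with RMA per the submitters' processing notes. Deposited values ran from 1.84 to 13.8, which fits log2. The version of RMA was not stated. Of 35556 rows, 21789 carried 1 gene symbol in the platform annotation, 1621 several and 12146 were not listed. Symbols were updated by gene identifier through RefSeq (21698 rows matched), and the brightest row stood for each of 19938 genes.

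A limma 3.58.1 model (R 4.3.3) with a mean per population was fitted to all 9 arrays and all genes, with empirical Bayes moderation (prior degrees of freedom 3.08). All tests were 2-sided; calls needed a Benjamini-Hochberg adjusted p under 0.05. The code was tested on simulated data. Differences are first-named minus second-named population. Precision is limited by the number of arrays. Batches are not given in the labels.

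Members and lists were chosen with earlier results of these data known. Named were all members, the 5 genes most like a member spanning at least 1 log2 unit, up to 4 called genes per list and comparison (with none called, its extremes), 4 neighbours on each side and the sort markers. Ifit3, Zdhhc20, Mertk and Itgax were named after their values were seen. Listed genes without a single-symbol row were not analysed here. Alternatives were the 6 arrays alone, filters on dim rows, normalization, variance moderation, a replicate block, the choice of rows and leaving out each array. Promoters came from RefSeq.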

Additional observations from a re-analysis of the deposited data

How the results depend on the processing

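Ifitm3 stayed lower in Ly49E+CD8aa+ than in both other populations under all 22 alternatives. Its call against Ly49E-CD8aa+ was lost in 12 of 22 and the number of members called became 0 there: with the 6 arrays alone (difference -1.92, limma adjusted p = 0.339, on fewer arrays), with quantile normalization again (-1.92, adjusted p = 0.0508), with the replicate block (-1.92, adjusted p = 0.121), with all rows tested (-1.92, adjusted p = 0.0558) and without any array but Ly49E-CD8aa+ replicate 2. Leaving out 1 array gave 0 to 1 called members and Ifitm3 differences from -2.23 to -1.63. Over all 19938 genes, limma called 26 in this comparison as reported. It called 0 with the 6 arrays alone, 24 with quantile normalization again, 17 with the replicate block and 22 of 21789 with all rows tested. Without an array whose removal lost the Ifitm3 call, 5 to 10 of all genes were called. Why the call was lost was not tested. With the 6 arrays alone the SE of this Ifitm3 difference was 0.299 in place of 0.272. For Ly49E+CD8aa+ minus Ly49E+CD8aa-, also cut to its 6 arrays, it was 0.169 in place of 0.272 (limma adjusted p = 0.00477). The count of members called in the other comparisons, 1 and 0, was the same in all alternatives (all genes 339 and 429 of 19938 as reported).

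Reversals touched members that were not called. Ifitm3 between Ly49E+CD8aa- and Ly49E-CD8aa+ ran from -0.30 to 0.30 on leaving out 1 array. In Ly49E+CD8aa+ minus Ly49E-CD8aa+, leaving out 1 array gave -0.38 to 0.05 for Ifitm2 and -0.06 to 0.08 for Ifitm6, the mean of rows gave -0.03 for Ifitm1, and, chosen after seeing the data, the second Ifitm1 row gave -0.11 and the third Ifitm2 row 0.07. Ifitm5 in Ly49E+CD8aa+ minus Ly49E+CD8aa- ran from -0.06 to 0.13. Both filters on dim rows removed Ifitm6, which then had no value, and kept the other 4 members.

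Replicate numbers were not taken as pairs, since not every pair's correlation of deviations from the population means was above 0.1 (-0.06 to 0.22 over 9 pairs, 4 of 9 above). The 3 pairs of replicate 1 were all above it (0.22, 0.17 and 0.13), and these arrays also shared the highest enterocyte marker sums. The replicate block changed no other call of a member.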
